A study of Homo sapiens with 6 samples.

Results

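The MuSK pathway was followed in UE7T-9 cells through 6 genes, *AGRN*, *LRP4*, *MUSK*, *DOK7*, *RAPSN* and *CHRNA1*. They were listed by name because MuSK, a receptor tyrosine kinase of the neuromuscular junction, is a receptor that SHC4 was tied to in earlier work. All 6 of 6 were found by Ensembl identifier among the 28181 genes in the files. UE7T-9 is an immortalized human mesenchymal stem cell line that came from bone marrow. Cells of the line were infected with lentivirus and sequenced as 3 UE7T-9 SHC4 and 3 UE7T-9 Cont libraries. UE7T-9 SHC4 carried the *SHC4* coding region behind a CMV promoter in a vector with puromycin resistance. UE7T-9 Cont was labelled nontarget with WT genotype, and the methods describe a GFP vector in the same backbone. The replicates were labelled biological. The design text speaks of clones, but whether the replicates were separate clones, infections or cultures is not given in the sources used here, so the p-values measure the spread between these libraries only. The groups are called SHC4 cells and controls below.

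At the neuromuscular junction the motor nerve releases agrin, a large heparan sulfate proteoglycan that binds LRP4 on the muscle fibre. LRP4, a member of the LDL receptor family, then activates MuSK, and the adaptor DOK7 binds the activated kinase and sustains its activity. The signal gathers acetylcholine receptors into clusters that rapsyn, the product of *RAPSN*, anchors beneath the membrane. *CHRNA1* encodes the alpha subunit of the muscle acetylcholine receptor. Agrin is also a general component of basement membranes, and LRP4 acts in bone as a receptor for sclerostin, so both are made outside muscle. The agrin of nerve differs from that of other tissues by small alternative exons, which a count per gene cannot separate.

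Of these genes, the ligand and its receptor were expressed in UE7T-9 cells. *MUSK* was low but above the detection limit of 3 reads in every library. *DOK7*, *RAPSN* and *CHRNA1* were at or near that limit. A gene was counted as expressed when each library of a group held over 3 reads and the group mean was at least 10 normalized counts, where a normalized count is the read count divided by the size factor of the library. *AGRN* and *LRP4* met this rule (2 of 6 genes). *MUSK* had 6 to 14 reads in every library but group means just under 10. *DOK7*, *RAPSN* and *CHRNA1* had 0 to 9 reads per library, each with no read in at least 1 library. None of the 6 genes was called between SHC4 cells and controls, where the limma test called only 0.0608% of all 23040 genes.

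The promoters of 3 of the 6 genes (*MUSK*, *CHRNA1* and *DOK7*) had an entry in the RefSeq table for GRCh38.p14. Of these 3, *DOK7* and *CHRNA1* were at or near the detection limit here, and *MUSK* was low but had over 3 reads in every library. The 250 bases before the annotated start of *MUSK* and *CHRNA1* are shown as examples, and the *DOK7* windows are described below by their counts only. Whether elements in these windows bear on the levels was not tested. Capitals mark E-boxes (CANNTG, which reads as the same pattern on both strands), the element that myogenic transcription factors such as MyoD and myogenin bind.
MUSK: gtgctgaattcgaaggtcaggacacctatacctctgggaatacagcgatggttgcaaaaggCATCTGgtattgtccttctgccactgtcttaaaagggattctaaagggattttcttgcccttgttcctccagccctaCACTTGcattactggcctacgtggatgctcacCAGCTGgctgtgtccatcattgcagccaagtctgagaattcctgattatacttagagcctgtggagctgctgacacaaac
CHRNA1: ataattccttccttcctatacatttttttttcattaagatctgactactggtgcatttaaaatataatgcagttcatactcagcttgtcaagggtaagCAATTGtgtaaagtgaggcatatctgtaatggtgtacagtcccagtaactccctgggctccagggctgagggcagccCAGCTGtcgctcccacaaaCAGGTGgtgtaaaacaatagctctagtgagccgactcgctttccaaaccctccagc

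The *MUSK* window lies at chr9:110668541-110668790 on the plus strand, and its last 20 bases fall in a *MUSK* exon of GENCODE 29. The *CHRNA1* window lies at chr2:174764473-174764722 on the minus strand, inside the GENCODE 29 span of the gene but in none of its exons. Each window held 3 E-boxes, of which 1 was CAGCTG. Of 35116 RefSeq promoter windows of the same length, 61.8% held at least 1 E-box and 14% held CAGCTG, which is one of the CANNTG forms. Both windows had 3 CpG dinucleotides, whereas the median over all windows was 11. The window of the outer *DOK7* start had 1 E-box and 27 CpG dinucleotides, and that of the inner *DOK7* start had 0 E-boxes and 14 CpG dinucleotides. The N-box CCGGAA, an element of synaptic genes in muscle, was searched on both strands and was found in 0 of these 4 windows and in 14.5% of all windows. *MYOD1*, *MYOG*, *MYF5* and *MYF6*, the genes of the myogenic factors, were not among the genes of the files.

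The libraries held 18144993 to 27721397 recovered reads, and 3 reads corresponded to 2.497 to 3.53 normalized counts. *SHC4* had 56.5, 157 and 130 normalized counts in the controls and 134870, 119166 and 155006 in SHC4 cells, so every library fitted its group label. Across genes, however, control replicate 1 correlated more closely with every SHC4 library than with either other control. Pearson's r was 0.9745, 0.9692 and 0.9684 with SHC4 replicates 1, 2 and 3, and 0.9668 and 0.9622 with control replicates 2 and 3. Values without control replicate 1 are given below for *AGRN*, *LRP4* and *MUSK*. All 6 markers of mesenchymal stem cells were present, with a summed normalized count of 54084 to 59850 in the controls and 61226 to 69977 in SHC4 cells. Of 11 skeletal muscle markers, 6 were in the files and 1, *MYH3*, had a mean of at least 10, and their sum was 49.7 to 56.5 in the controls and 29.002 to 56.6 in SHC4 cells. Of 10 markers of motor neurons and Schwann cells, 6 were in the files and 4 had a mean of at least 10, *SNAP25* and *SYT1* among them, while *CHAT*, *SLC18A3*, *MNX1* and *ISL1* were not among the genes of the files and *SOX10* had at most 1.97 normalized counts. The sum of this list was 636 to 815 in the controls and 516 to 771 in SHC4 cells. For 7 blood cell markers, 6 of them in the files, the sum was 228 to 418 in the controls and 279 to 349 in SHC4 cells. Of these, 4 had a mean of at least 10: *HLA-DRA* (72.8 to 262), *CD14* (52.7 to 88.3), *CD34* (39.6 to 52.7) and *ITGAM* (12.8 to 42.5). *PTPRC* and *CD79A* had no more than 6.82 and 10.7. For 3 endothelial markers the sum was 47.2 to 73.1 in the controls and 48.3 to 95.7 in SHC4 cells. Of these, 2 had a mean of at least 10. *VWF* had 34.4 to 65.3 over the 6 libraries. *PECAM1* had 7.80, 11.8 and 12.8 in the controls and 9.67, 36.6 and 38.4 in SHC4 cells. *CDH5* had no more than 1.18. The part of these other cell types in the results was not tested. In these bulk samples, fewer cells of a type and less RNA per cell cannot be told apart.

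*AGRN* (chromosome 1, bases 1020123 to 1056118, plus strand), the ligand, placed by its identifier in GENCODE 29 (GRCh38), had 6313, 10207 and 10215 normalized counts in control replicates 1, 2 and 3. It had 5519, 8585 and 7769 in SHC4 replicates 1, 2 and 3. Replicate 1 was the lowest library of each group, and the groups overlapped because control replicate 1 lay below SHC4 replicates 2 and 3. The means were 8912 ± 2251 in the controls and 7291 ± 1588 in SHC4 cells (SD, n = 3 each). The limma log2 fold change was -0.28 ± 0.24 (SE, adjusted p = 0.629), a ratio of 0.824 with a 95% interval of 0.571 to 1.19. An exact two-sided permutation test over the libraries gave p = 0.3, where the smallest possible with 3 against 3 is 0.1. Without control replicate 1, all SHC4 libraries lay below both remaining controls and the log2 fold change was -0.51 (limma adjusted p = 0.165). It was -0.091 without SHC4 replicate 1 (limma adjusted p = 0.893).

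*LRP4* (chromosome 11, bases 46856868 to 46918642, minus strand), the agrin receptor, had 393, 263 and 202 normalized counts in control replicates 1, 2 and 3. It had 335, 355 and 331 in SHC4 replicates 1, 2 and 3. The SHC4 libraries were close to each other, and control replicate 1 lay above all of them whereas the other two controls lay below. The means were 286 ± 97.7 in the controls and 340 ± 13.2 in SHC4 cells (SD, n = 3 each). The limma log2 fold change was 0.31 ± 0.23 (SE, adjusted p = 0.576), a ratio of 1.24 with a 95% interval of 0.867 to 1.76, and the exact two-sided permutation test gave p = 0.4. The log2 fold change was 0.56 without control replicate 1 (limma adjusted p = 0.0862) and 0.083 without control replicate 3 (limma adjusted p = 0.913). An antisense gene, *LRP4-AS1*, shares 515 exonic bases with *LRP4*, but it had at most 3.53 normalized counts in any library.

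*MUSK* (chromosome 9, bases 110668771 to 110801620, plus strand), the receptor kinase, had reads that numbered 12, 6 and 10 in control replicates 1, 2 and 3, or 11.7, 7.06 and 9.84 normalized counts. They numbered 14, 10 and 6 in SHC4 replicates 1, 2 and 3, or 12.3, 8.32 and 6.99 normalized counts. Every library was above the limit of 3 reads, and the groups covered nearly the same range. The means were 9.53 ± 2.33 and 9.20 ± 2.77 (SD, n = 3 each). The exact 95% Poisson intervals of the pooled reads, which cover counting error only, were 6.43 to 14.0 in the controls and 6.33 to 13.4 in SHC4 cells. The limma log2 fold change was -0.055 ± 0.47 (SE, 95% interval -1.11 to 1.00, adjusted p = 0.971), and the exact two-sided permutation test gave p = 0.9. Without control replicate 1 the log2 fold change was 0.093. The interval gives the changes compatible with these libraries and is not a limit of detection.

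*DOK7* (chromosome 4, bases 3463311 to 3501473, plus strand), the adaptor that binds MuSK, had 1, 9 and 2 reads in the controls and 0, 1 and 1 reads in SHC4 cells. Most of its reads, 9 of the 12 in the control group, came from control replicate 2. The ratio of the pooled reads, SHC4 cells over controls, was 0.151 with a counting interval of 0.0164 to 0.677. This interval leaves out the spread between libraries, and with that spread the limma adjusted p was 0.465 (exact two-sided permutation p = 0.2).

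*RAPSN* (chromosome 11, bases 47437757 to 47449178, minus strand), which encodes the receptor anchor rapsyn, had 0, 2 and 3 reads in the controls and 2, 9 and 8 reads in SHC4 cells. SHC4 replicates 2 and 3 had the most reads, and replicate 1 fell within the controls. The ratio of the pooled reads was 3.44 with a counting interval of 1.24 to 11.8, while the limma adjusted p was 0.447 (exact two-sided permutation p = 0.3). *CHRNA1* (chromosome 2, bases 174747592 to 174787935, minus strand) had 0, 0 and 6 reads in the controls and 0, 1 and 3 reads in SHC4 cells. Both group means, 1.97 and 1.44 normalized counts, were under the limit of 3 reads, so no ratio is given for it.

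**Figure D1:**
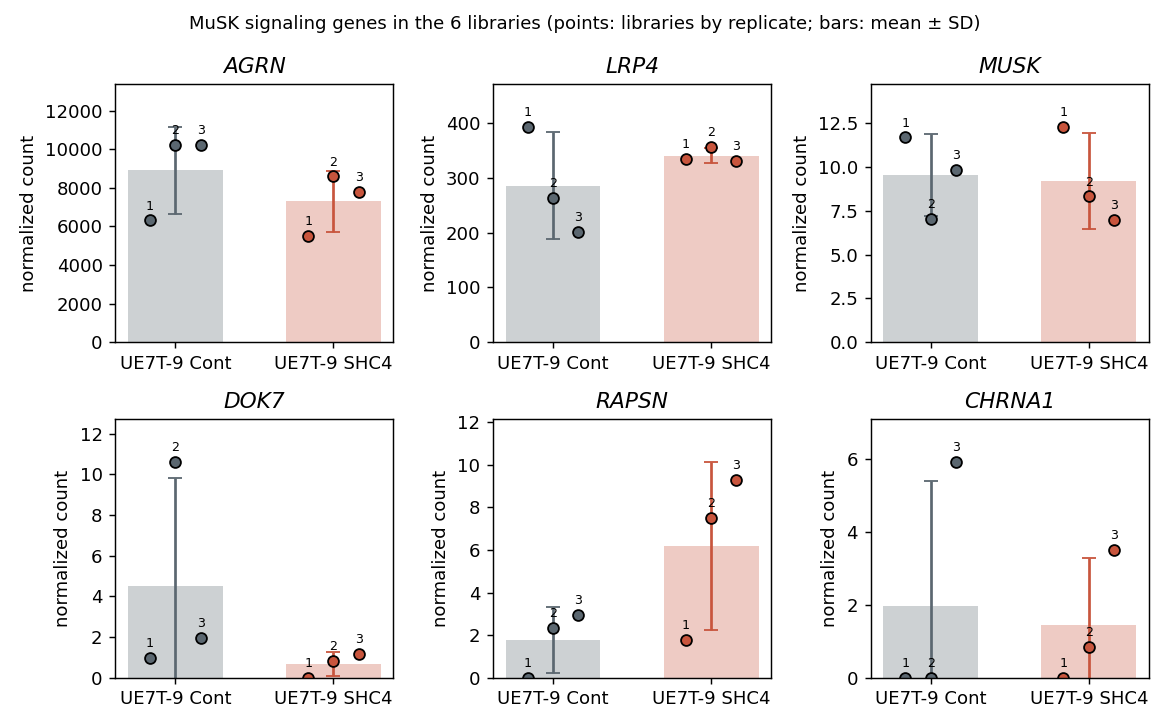
Normalized count of each gene in the 6 libraries, with libraries as points numbered by replicate and bars for the mean ± SD of 3 libraries. *AGRN* lies between 5519 and 10215 and *LRP4* between 202 and 393, *MUSK* lies between 6.99 and 12.3, and the groups overlap in all 6 panels.

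With limma, 0 of the 6 genes were called (adjusted p below 0.05 with a log2 fold change beyond 1 in either direction), against 0.0608% of the 23040 genes tested. At an unadjusted p below 0.05 the number was also 0 of 6, against 14.4% of all genes. The edgeR test gave an adjusted p to 3 of the 6 genes (*AGRN*, *LRP4* and *MUSK*) and called 0 of them, against 0.0631% of its 15859 genes. DESeq2 also gave an adjusted p to these 3 and called 0, against 2.2% of 16153 genes. The groups did not overlap for 0 of the 6 genes, against 19.3% of all genes tested. In the fits that left out 1 library, 0 of the 6 were called as well. Without control replicate 1, 3 of the 6 (*AGRN*, *LRP4* and *DOK7*) had an unadjusted p below 0.05, against 22.3% of the 23087 genes of that fit. Without SHC4 replicate 1 it was 1 of the 6 (*RAPSN*), against 14.4% of 23033 genes.

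**Figure D2:**
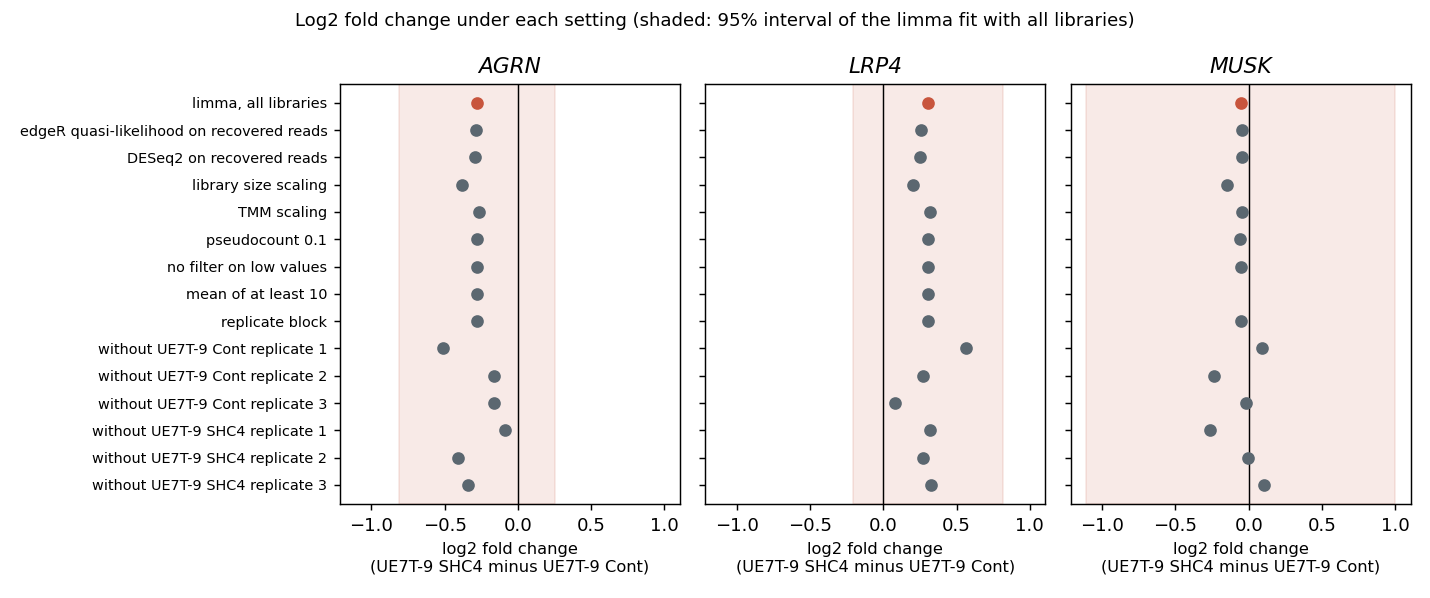
Log2 fold change of *AGRN*, *LRP4* and *MUSK* (SHC4 cells minus controls) under each setting of the analysis, with the 95% interval of the limma fit with all libraries shaded. *AGRN* stays below 0 and *LRP4* above 0 in every setting drawn, and *MUSK* ranges from -0.26 to 0.11.

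Levels of different genes were compared per kilobase of exon, using the merged exons of GENCODE 29. *AGRN* had 753 ± 182 normalized counts per kb over the 6 libraries (SD), at percentile 95 of the genes tested. *LRP4* had 36.4 ± 8.04, which placed it at percentile 52.4. *MUSK* (2.21 ± 0.541, percentile 16.1) and *RAPSN* (2.07 ± 1.88, percentile 15.2) did not differ beyond their spread. *DOK7* (0.642 ± 0.986, percentile 4.55) and *CHRNA1* (0.351 ± 0.507, percentile 1.73) were lowest and also did not differ beyond their spread. In each library *AGRN* was above *LRP4* and *LRP4* was above the other 4 genes. The ratio of *AGRN* to *LRP4* per kb was 12.8, 31.1 and 40.5 in the controls and 13.2, 19.3 and 18.8 in SHC4 cells. The replicates numbered 1 had the lowest ratio of each group, and the group means of 28.1 ± 14.1 and 17.1 ± 3.40 (SD, n = 3 each) were not separated by an exact two-sided permutation test (p = 0.4). The ratio of *LRP4* to *MUSK* per kb ranged from 10.1 to 23.4.

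**Figure D3:**
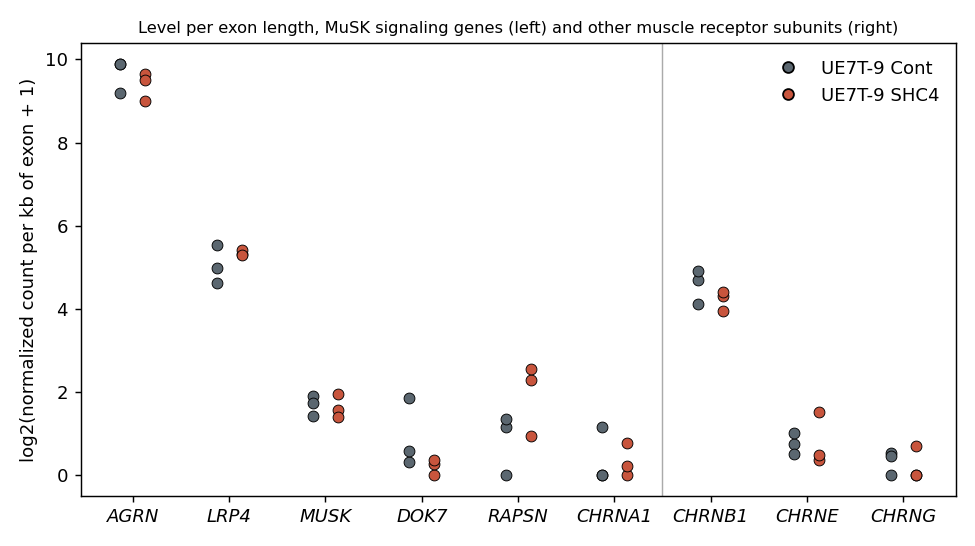
Level per kilobase of exon on the log2(value + 1) scale for the 6 genes and for the other muscle acetylcholine receptor subunits in the files, with each library as a point. *AGRN* is the highest in every library, *LRP4* is next except in control replicate 3, where *CHRNB1* (29.3 per kb) lies above it (23.5), and no other gene exceeds 4.86 per kb in any library.

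Among the other subunits of the muscle acetylcholine receptor, *CHRNB1*, the beta subunit, stood apart. It had 70.2, 108 and 127 normalized counts in the controls and 62.4, 81.6 and 87.3 in SHC4 cells, with a limma log2 fold change of -0.37 (adjusted p = 0.58). Its level per kb was 20.7 ± 5.59 (SD over 6 libraries). *CHRNE* (epsilon) and *CHRNG* (gamma) had at most 5.27 and 1.66 normalized counts, and *CHRND* (delta) was not among the genes of the files. Of 11 neuronal subunits 8 were tested and limma called 0, against 0.0608% of all genes. Their median log2 fold change was -0.49. *CHRNA5*, an accessory subunit, had 54.1 to 67.3 normalized counts in the controls and 30.8 to 32.6 in SHC4 cells without overlap (limma adjusted p = 0.188). *CHRNA9* had 5.85, 11.8 and 15.7 in the controls and 0.879, 0.832 and 2.33 in SHC4 cells, the latter all under the limit of 3 reads (limma adjusted p = 0.174).

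Some relatives of MuSK lay above it in level. ROR1 and ROR2, receptor kinases with a Frizzled-like domain as in MuSK, had 105 ± 18.7 and 83.8 ± 38.4 normalized counts per kb over the 6 libraries. *NTRK2*, the BDNF receptor gene, had 518, 407 and 199.7 normalized counts in the controls and 655, 1515 and 1378 in SHC4 cells, so that the groups did not overlap. Its limma log2 fold change of 1.67 ± 0.39 (standard error) had an adjusted p of 0.152, and DESeq2 called it (adjusted p = 0.00116) while edgeR did not (adjusted p = 0.156). The 5 related kinases had a median log2 fold change of 0.69.

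In the DOK family, *DOK1* (454 ± 99.2 normalized counts per kb), *DOK5* (356 ± 77.6) and *DOK4* (158 ± 36.4) were the main members, whereas *DOK7* was at 0.642. Of 6 further DOK genes 5 were tested and limma called 0, against 0.0608% of all genes. All 5 had a log2 fold change above 0, as had 11440 of all 23040 genes, but that of *DOK3* was only 0.0017. The median was 0.31, and 0.20 when libraries were scaled by their size. *DOK6* had 86.6 to 146 normalized counts in the controls and 157 to 247 in SHC4 cells (limma adjusted p = 0.233). In the LDL receptor family, *LRP4* was below *LRP1* (1880 ± 628 per kb), *LRP10* (1603 ± 294), *LRP5* (133 ± 23.4) and *LRP6* (128 ± 5.33). Of its 10 genes limma called 0, against 0.0608% of all genes. The median of 0.046 became -0.057 when libraries were scaled by their size, a scaling that moved the all-gene median from -0.0040 to -0.10. *LRP8*, a reelin receptor, had 700 to 1113 normalized counts in the controls and 542 to 593 in SHC4 cells (limma adjusted p = 0.18, DESeq2 adjusted p = 0.0328).

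Of 7 other ligands of LRP4 or MuSK, 6 were in the files and limma called 0, against 0.0608% of all genes. Their median log2 fold change was -0.21. *APP*, whose product binds LRP4, had a mean of 37164 in the controls and 32972 in SHC4 cells, *DKK1* 3123 and 2199, and *BMP4* 487 and 568. *SOST*, the sclerostin gene, was not among the genes of the files, and *WNT11* had means of 30.6 in the controls and 26.0 in SHC4 cells. *WNT4* had 6.82, 5.89 and 9.84 normalized counts in the controls and 0.879, 4.16 and 4.66 in SHC4 cells without overlap (limma adjusted p = 0.432). *PRSS12*, the gene of neurotrypsin, the protease that cleaves agrin, had 3376 to 5523 normalized counts in the controls and 5421 to 5927 in SHC4 cells (limma adjusted p = 0.506). *MMP3*, another protease that can release agrin, had 2.92, 118 and 66.9 in the controls and 8.79, 3.33 and 9.32 in SHC4 cells. The groups overlapped for *MMP3* through control replicate 1, and limma gave an adjusted p of 0.433 where DESeq2 gave 0.0214.

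Of 30 genes of MuSK intracellular signaling, 30 were tested and limma called 0, against 0.0608% of all genes. Of the 30, 12 had a log2 fold change above 0 and 18 below (median -0.080). Per kb over the 6 libraries, *RHOA*, a GTPase gene, had 5403 ± 945 normalized counts, *CTTN*, the cortactin gene, 1351 ± 120, *CTNNB1*, the beta-catenin gene, 547 ± 16.1 and *MACF1*, the gene of a microtubule-actin linker, 168 ± 35.8. *ABL2*, an ABL kinase, had 2867 to 3628 normalized counts in the controls and 2235 to 2583 in SHC4 cells (limma log2 fold change -0.42, adjusted p = 0.221). *CLASP2*, which guides microtubules to receptor clusters, had 1458 to 1789 and 1173 to 1263 (log2 fold change -0.38, adjusted p = 0.222). The groups did not overlap for either gene, nor for *CTTN* and *CTNNB1*, which were higher in SHC4 cells. In the whole list this held for 4 genes that were higher and 6 that were lower, against 9.13% and 10.2% of all genes.

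Of 17 genes of the synaptic basal lamina and agrin-binding matrix 0 were called by limma, against 0.0608% of all genes. The median log2 fold change was 0.10, and 0.0008 when libraries were scaled by their size. *LAMB2*, the laminin chain of synaptic basal lamina, had 1834 ± 382 normalized counts per kb and *DAG1*, the dystroglycan gene, 613 ± 54.6 over the 6 libraries. *COL13A1*, a transmembrane collagen of the junction, had 202, 383 and 567 normalized counts in the controls and 169, 74.1 and 58.2 in SHC4 cells. Its limma log2 fold change was -1.96 ± 0.44 (SE, adjusted p = 0.148), and DESeq2 called it (adjusted p = 0.00138). *LAMA5* had 1088 to 2862 in the controls and 3022 to 4076 in SHC4 cells (limma adjusted p = 0.218). *COLQ* and *ACHE*, which encode the collagen tail and the catalytic subunit of synaptic acetylcholinesterase, had no more than 25.6 and 22.6 normalized counts.

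Of 13 genes of the dystrophin and utrophin complex 12 were tested and limma called 0, against 0.0608% of all genes. Their median log2 fold change was 0.27. DESeq2 gave an adjusted p to 11 of them and called 1, higher in SHC4 cells, against 1.05% of all its genes. The gene that DESeq2 called was not *SGCD* (DESeq2 adjusted p = 0.082). *SGCD*, the delta-sarcoglycan gene, had 776, 339 and 155 normalized counts in the controls and 1021, 1799 and 2011 in SHC4 cells (limma adjusted p = 0.149). Control replicate 1 was the highest control for *SGCD* and SHC4 replicate 1 the lowest of its group. *UTRN*, the utrophin gene, had a mean of 4195 ± 992 in the controls and 5444 ± 221 in SHC4 cells (SD, n = 3 each, limma adjusted p = 0.332). The 5 glycosylation enzymes whose loss causes congenital myasthenia had a median log2 fold change of -0.15, with *GFPT1* at means of 3818 and 3050. Limma called 0 of these 5, against 0.0608% of all genes.

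Over all these lists, 102 genes besides the 6 genes and *SHC4* were tested. Limma called 0 of them, against 0.0608% of all genes. There were 51 log2 fold changes above 0 and 51 below, with a median of 0.00060, where the median of all 23040 genes was -0.0040. At an unadjusted p below 0.05 there were 19 of the 102, against 14.4% of all genes. The groups did not overlap for 12 genes that were higher and 13 that were lower in SHC4 cells, against 9.13% and 10.2% of all genes. DESeq2 called 2 higher, with *NTRK2* among them, and 2 lower (*COL13A1* and *MMP3*) of the 93 to which it gave an adjusted p, against 1.05% and 1.15% of all its genes. By adjusted p alone, whatever the fold, DESeq2 passed 4.14% of all its genes, and *LRP8* was among these.

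**Figure D4:**
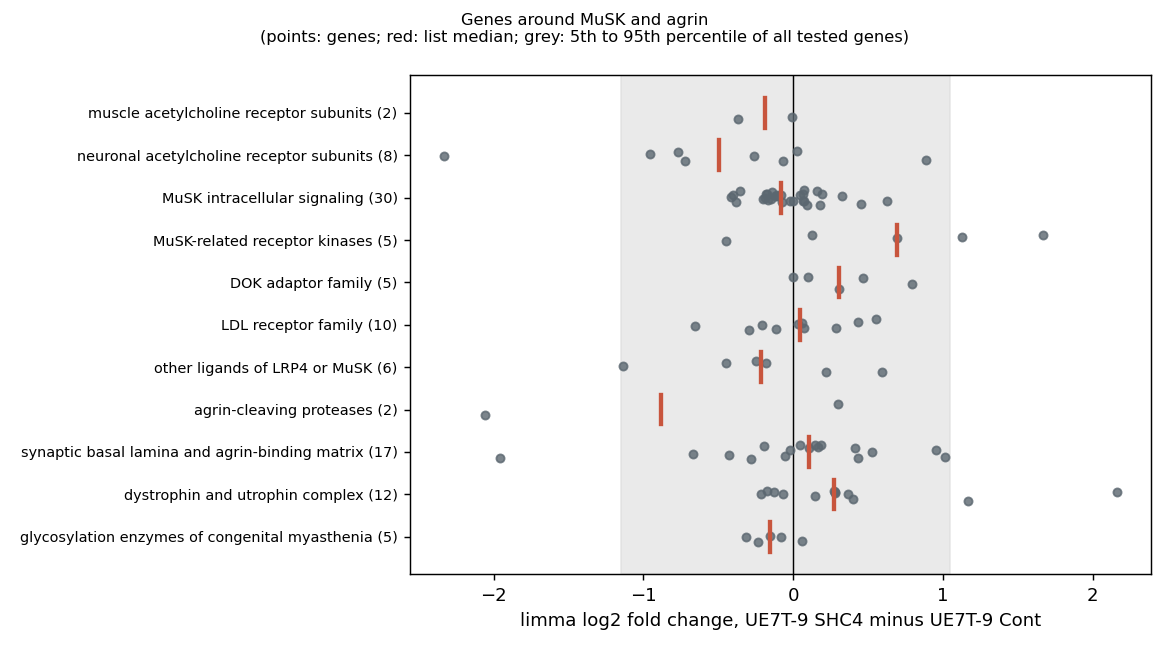
Limma log2 fold change (SHC4 cells minus controls) of the genes tested in each list around MuSK and agrin, with a point per gene, a red line at the list median and the number of genes in parentheses. The grey band spans the 5th to 95th percentile of all 23040 genes, from -1.15 to 1.05, and most points lie within it.

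The genes whose pattern over the 6 libraries was most like that of *AGRN* and *LRP4* were sought among 12677 genes with a mean of at least 50, by the root mean square difference of log2 values centred on each gene's mean. For *AGRN* these were *RBM41* (0.0373), *BTG2* (0.0412) and *NSUN3* (0.0512), where the spread of *AGRN* itself around its mean was 0.332. For *LRP4* they were *FLJ20021* (0.0490), *HAUS1* (0.0497) and *PDE3A* (0.0537), where the spread of *LRP4* was 0.319. With 6 libraries and so many candidates, close matches are a description of these libraries.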

How the data were processed

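Each group had 3 RNA samples, isolated on RNeasy columns, and libraries from a NEBNext Ultra kit were run on a NovaSeq instrument. The submitters' processing notes name HISAT2 2.0.5, featureCounts 1.5.0-p3 and DESeq2. Genome build, annotation and strand setting are not given in the sources used here, so without strand the reads of a gene and its antisense partner cannot be told apart. The signal values that the authors deposited are normalized counts, each gene's reads over a size factor that is constant within a library. Dividing by the smallest value above 0 gave whole reads for 100% of values (tolerance 0.01 reads).

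Values were tested as log2(value + 1) with limma 3.58.1 (lmFit, eBayes with trend, R 4.3.3) if a gene averaged 1 or more, which left 23040 genes. P-values were adjusted by Benjamini-Hochberg over all of them, and folds of low genes are understated on this scale. Calls required an adjusted p under 0.05 together with a log2 fold change beyond 1 in size. Alternatives were edgeR 4.0.16 and DESeq2 1.42.0 on the recovered reads, library size and TMM scaling, a pseudocount of 0.1, no filter, a filter at 10, a replicate block, and leaving out each library. The 6 genes and all lists were chosen with earlier results of these data known. The genes to be named were the 6 genes, *SHC4*, genes overlapping the 6, from each list the genes called or else up to 4 of highest mean and up to 2 of smallest unadjusted p, and for each expressed gene the 3 nearest in pattern. Other list genes were named after their values were seen. Promoters are from RefSeq (GRCh38.p14), and intervals of reads cover counting error only. Some genes of the lists are not reported here by name.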

Additional observations from a re-analysis of the deposited data

How the results depend on the processing

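The number of the 6 genes that were called was 0 under each alternative that was run, and under the looser rule of a mean of at least 1 the number of expressed genes was 3 (*MUSK* was added). *AGRN* kept its direction under all alternatives, with log2 fold changes from -0.51 to -0.091 when 1 library was left out, and *LRP4* did so from 0.083 to 0.56. *MUSK* ranged from -0.26 to 0.11 when 1 library was left out and turned to 0.093 without control replicate 1 and to 0.11 without SHC4 replicate 3. Over all genes, limma called 12 higher and 2 lower, DESeq2 170 and 185, library size scaling 19 and 5, TMM scaling 20 and 4, no filter 31 and 9, and the replicate block 25 and 14. The number lower was 1 with edgeR and 1 with the pseudocount of 0.1. Leaving out 1 library gave 1 to 367 higher and 0 to 339 lower, with the highest counts without control replicate 1, and the cause was not tested. Deviations of same-numbered libraries correlated at 0.148, 0.013 and -0.00696, so the numbers were not taken as pairs. With the replicate block the adjusted p of *AGRN* was 0.277 and that of *LRP4* 0.463, with log2 fold changes of -0.28 and 0.31, and no call among the 6 genes changed. *AGRN* was the 1 of the 6 with an unadjusted p below 0.05 under the block, against 17.5% of all genes. *DOK7*, *RAPSN* and *CHRNA1* did not pass the filter of edgeR and could not be tested with it. Nor could they or *MUSK* be tested at a mean of at least 10. *DOK7* did not pass the filter without control replicate 2, and *CHRNA1* did not pass it without control replicate 3. Depth limits the 4 low genes, whose reads numbered 14 or fewer in each library.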

Other observations

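*CDC42*, which encodes a GTPase found in nearly all cells and was listed under MuSK intracellular signaling, had only 4.71 to 19.3 normalized counts in the 6 libraries. *MUSK* had 6.99 to 12.3. *RAC1*, a related GTPase of the same list, had 5710 to 7175. A low value in these files is thus what the authors' counting assigned to a gene and was not checked against reads. For the 6 genes, the overlap of exons with other GENCODE 29 genes was 515 bases for *LRP4*, 402 bases for *AGRN* and 0 for the others.

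Genes of regulated secretion were measured in this line although they were listed as neuronal markers. *SNAP25*, a SNARE of synaptic vesicle fusion, had 164 to 364 normalized counts, and *SYT1*, the calcium sensor of that fusion, had 232 to 471.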
